A study of Mus musculus with 30 samples.

Results

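Wnt signalling is the pathway followed here: 36 genes of the 14763 named genes in a mouse array study, found by symbol as Wnt ligands, Frizzled (Fzd) receptors with their Lrp5, Lrp6 and Ror2 partners, secreted Sfrp, Dkk and Rspo modulators, and the Dvl, Axin, Apc, Gsk3b, Ctnnb1 and Tcf/Lef steps inside the cell. They were measured by 46 probes, and 8 genes had several. By role they were 5 ligands, 2 proteins of ligand processing, 2 agonists, 5 secreted antagonists, 11 receptors, 7 cytoplasmic proteins, 3 nuclear proteins and 1 antisense transcript, Fzd10os.

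The cells were 3T3-L1, an established mouse preadipocyte line that turns into fat-storing adipocytes under hormones or some chemicals. As a single clonal line it carries no variation between animals. Every one of the 10 groups held 3 arrays, which the submitters describe as biological replicates without naming separate cultures or days. The p-values rest on the spread between arrays within groups, as an estimate per gene that all 10 groups share. All cells had been confluent for 2 days, were moved to medium with foetal bovine serum, and were harvested at day 10. The DMSO group received 0.1% of that solvent. The MDI group received insulin at 10 µg/mL throughout, joined for the first 48 h by dexamethasone at 0.25 µM and isobutylmethylxanthine at 0.5 mM and given by itself for the other 8 days. The remaining 8 groups received a test agent for 10 days, labelled BPA, BBP, BP, DEHP, EB, PP, ROSI and TBT, with no dose given in the labels. ROSI, TBT and BPA are the usual short forms of rosiglitazone, tributyltin and bisphenol A, and BBP and DEHP those of phthalate plasticisers. BP, EB and PP are kept as codes.

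In the canonical pathway a secreted Wnt protein binds a Frizzled receptor and its Lrp5 or Lrp6 partner, the destruction complex of Axin, Apc and Gsk3b is held back, and beta-catenin, the product of Ctnnb1, accumulates and joins Tcf/Lef proteins on DNA. Porcn and Wls are needed to make and release the ligand, R-spondins raise receptor levels at the membrane, and Sfrp and Dkk proteins act outside the cell, mostly against the signal. The pathway is known for holding preadipocytes undifferentiated, and Wnt10b, Wnt10a and Wnt6 are the ligands best known for this. Of them only Wnt10a is among the genes found here by symbol.

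Each array set Cy3-labelled RNA of 1 sample against a Cy5-labelled reference that pooled control and exposed cells in equal amounts. A value is therefore a log ratio of sample over reference. It was read as log2 by assumption, and the fold values below rest on that. It tells nothing about how much of one gene there was relative to another. It also cannot show that a marker was present or absent, only where it was higher. Across all entries the mean of the DMSO arrays had a correlation of -0.51 with that of the MDI arrays, with the dyes running the same way in every array. The 30 array medians ran from -0.00315 to 0.0138, and the SD within an array from 0.151 to 0.333. No intensities were used here, so the signal over background of a probe is unknown, and the number of arrays limits the precision.

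All 10 adipocyte markers measured, among them the fatty acid carrier Fabp4, the hormone Adipoq and the master regulator Pparg, were called higher than in DMSO under MDI, ROSI, TBT, BPA, BBP, BP and PP. They numbered 3 of 10 under EB (Fabp4, Cd36 and Lpl), where the call of Fabp4 was lost after quantile normalization (adjusted p = 0.136), and 0 of 10 under DEHP. Their mean log ratio over the arrays ran from -2.46 to -2.11 in DMSO, 1.324 to 1.404 in MDI, 0.44 to 0.57 in ROSI and -0.24 to -0.15 in TBT. It ran from 0.15 to 0.23 in BP, -0.03 to 0.03 in PP, -0.82 to -0.72 in BPA, -0.69 to -0.55 in BBP, -2.20 to -2.12 in DEHP and -2.04 to -1.79 in EB. Of 8 markers of preadipocytes and fibroblasts, which include Dlk1, 4 were lower under MDI and 2 higher, 7 were lower under ROSI and all 8 under TBT. Of 4 smooth muscle markers, Acta2, Myl9 and Tagln were lower under MDI, ROSI, TBT, BPA, BP and PP. Of 3 osteoblast markers only the phosphatase Alpl was called, higher by 1.60 under MDI, 1.74 under TBT and 0.79 under ROSI and also higher under BPA, BBP and BP. Of 5 macrophage markers Cd14 was called lower under MDI and Cd68 higher under ROSI, and the endothelial Kdr, called in the F test, was called against DMSO for no agent. In bulk RNA of this kind, fewer cells of a type and less RNA per cell cannot be told apart. Whether these marker values move with the Wnt genes below, and their part in those results, was not tested.

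A gene was called at a limma p under 0.05 after Benjamini-Hochberg adjustment over all 19231 entries of the table (named genes and unnamed probes). Against DMSO, MDI lowered 15 of the 36 Wnt genes, where 18.3% of all entries were called lower, and raised 3, where 20.1% were called higher. ROSI lowered 16, beside 14.3% of all entries, and raised 1, beside 16.5%. TBT lowered 9, beside 10.6%, and raised 0, beside 14.1%. Under these 3 agents most of the called Wnt genes were lower. Over all entries, the share of calls that were higher was 52.4% under MDI, 53.5% under ROSI and 57.1% under TBT, and 46.8%, 46.0% and 48.9% after quantile normalization. The median change of the 36 genes was -0.08 under MDI, -0.15 under ROSI and -0.05 under TBT, and the median over all entries was 0.00236, 0.00372 and -5.09e-05.

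The other agents gave 0 to 10 calls each. BP lowered 8 (8.73% of all entries) and raised 0 (12.9%), and PP lowered 9 (8.24%) and raised 1 (12%). BPA lowered 5 (6.97%) and raised 3 (12.3%), and BBP lowered 2 (2.35%) and raised 0 (6.9%). DEHP called 0 in either direction, beside 0.0104% of all entries higher and 0.0052% lower, and EB also called 0, beside 0.432% and 0.25%. The balance over all entries depended on the scaling for BPA, BBP, BP and PP. The share of calls that were higher was 63.8% under BPA, 74.6% under BBP, 59.6% under BP and 59.3% under PP. After quantile normalization it was 49.97%, 53.2%, 48.9% and 51.5%. Under EB the share was 63.4%, from 83 higher and 48 lower calls, and 5% after quantile normalization. Under DEHP it was 66.7%, from only 2 higher calls and 1 lower call, and 26.7% after quantile normalization. With so few calls no balance is read for DEHP. All 9 comparisons share the 3 DMSO arrays, so they are given side by side and not as independent tests. Over all 10 groups, limma's F test called 21 of the 36, or 58.3%, where 49.4% of all entries were called, which is close to the background.

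**Figure D1:**
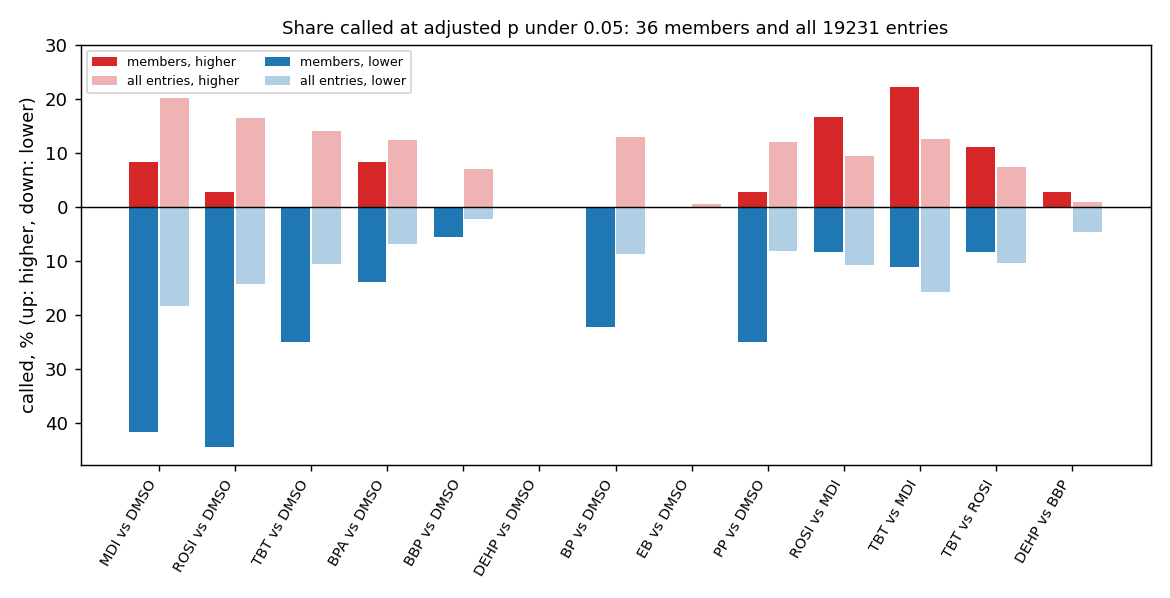
Share of the 36 Wnt genes (solid bars) and of all entries (pale bars) called at an adjusted p under 0.05 in each of 13 comparisons, in percent, with higher calls drawn upward and lower calls downward. Under MDI, ROSI, TBT, BPA, BBP, BP and PP the solid bars reach further down than the pale ones and less far up.

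In all, 23 of the 36 genes were called against DMSO for at least 1 agent. Called lower under each of MDI, ROSI and TBT were 9: Ctnnb1, Dkk3, Fzd1, Fzd7, Rspo2, Rspo3, Sfrp2, Tcf7l1 and Wls. The matching shares of all entries were not computed for either count, so neither is read as a trait of the Wnt genes. Called for none were 13: the ligands Wnt1, Wnt8b and Wnt10a, the receptors Fzd5 and Fzd10 with the antisense Fzd10os, the antagonists Sfrp1, Sfrp4 and Dkkl1, and Apc, Dvl1, Gsk3b and Tcf7l2. Dvl1 alone of these passed the F test, with an adjusted p of 0.0215.

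**Figure D2:**
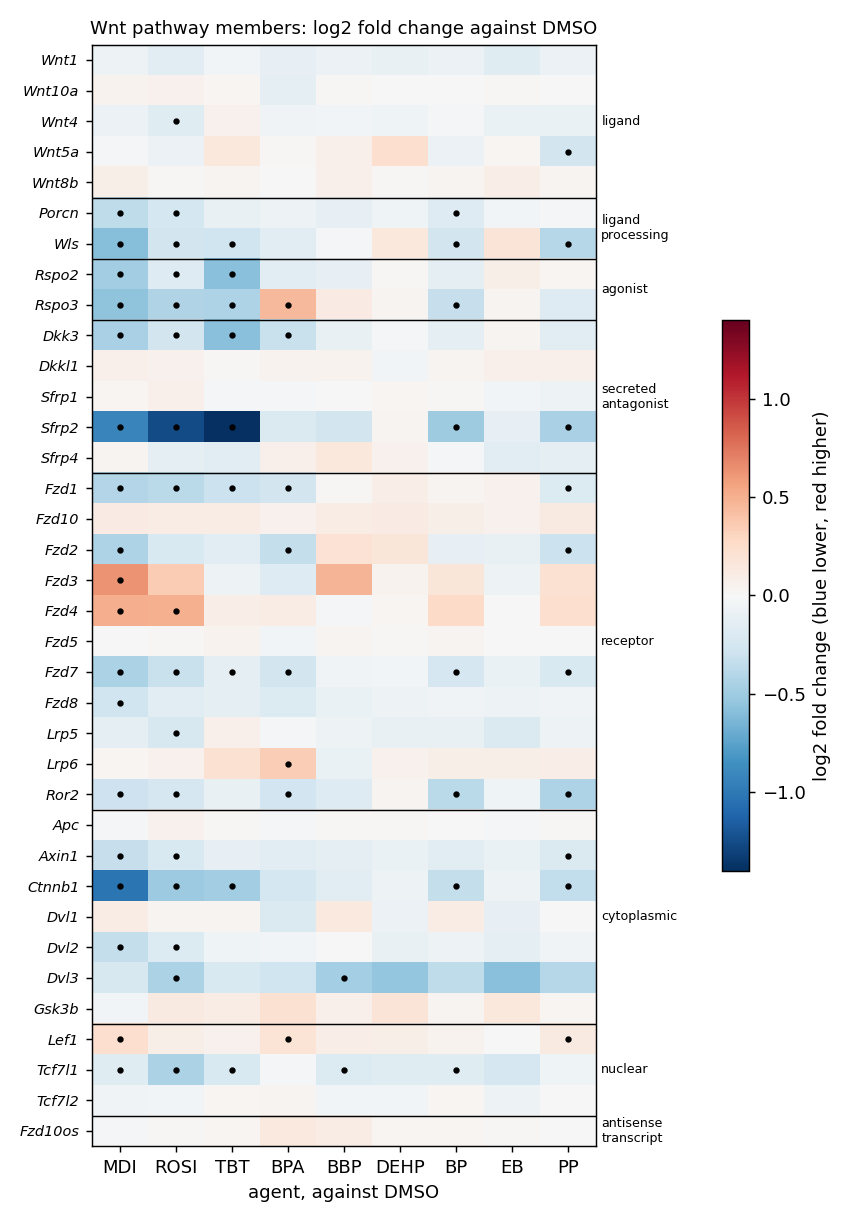
Log2 fold change against DMSO of the 36 Wnt genes (rows, grouped by role) under 9 agents (columns), blue for lower and red for higher, with a dot where the change was called. The darkest cells are Sfrp2 under MDI, ROSI and TBT and Ctnnb1 under MDI, while the DEHP and EB columns hold no dot.

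Among the secreted antagonists, Sfrp2, a Frizzled-like protein that binds Wnt outside the cell, had the smallest F test p of all 36 genes. Its log ratios were 0.48, 0.69 and 0.59 in the 3 DMSO arrays, -0.36, -0.33 and -0.32 in MDI, -0.72, -0.49 and -0.80 in ROSI and -0.84, -0.70 and -0.89 in TBT. They were 0.04, 0.21 and 0.03 in BP, -0.01, 0.31 and 0.11 in PP, 0.41, 0.55 and 0.21 in BPA, 0.27, 0.45 and 0.27 in BBP, 0.53, 0.64 and 0.71 in DEHP and 0.24, 0.55 and 0.64 in EB. Every array of MDI, ROSI and TBT lay below 0 and below every DMSO array, and BP and PP lay between them without overlapping DMSO. Sfrp2 fell by 1.40 (SE 0.102, adjusted p = 6.26e-11) under TBT, which is 2.64-fold on this ratio scale, by 1.26 (SE 0.102, adjusted p = 2.65e-10) under ROSI and by 0.92 (SE 0.102, adjusted p = 3.96e-08) under MDI. It fell by 0.50 (SE 0.102, adjusted p = 0.000753) under BP and by 0.45 (SE 0.102, adjusted p = 0.00177) under PP. These 5 calls held without any 1 array. BPA gave -0.20 and BBP -0.26, neither called.

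The window around the Sfrp2 start site is shown because this gene had the widest range over the groups. RefSeq gives it on the plus strand of GRCm38.p6 at chr3:83766071-83766370, with 250 bases before and 50 after the start of the gene. The core letters bound by Tcf/Lef proteins, CTTTGA or CTTTGT on either strand, stand in 31.2% of all 32851 such windows. They do not occur in this one, and so nothing is in capitals.
Sfrp2 promoter: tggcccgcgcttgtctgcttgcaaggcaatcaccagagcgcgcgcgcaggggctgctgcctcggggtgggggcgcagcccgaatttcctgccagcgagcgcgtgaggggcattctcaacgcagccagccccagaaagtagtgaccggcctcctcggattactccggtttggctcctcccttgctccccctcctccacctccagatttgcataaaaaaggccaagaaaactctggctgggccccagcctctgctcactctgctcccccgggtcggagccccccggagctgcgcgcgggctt

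Dkk3, a divergent Dickkopf protein whose effect on Wnt signalling varies with the setting, changed in the same direction. Its log ratios were 0.04, 0.07 and 0.07 in DMSO, -0.32, -0.40 and -0.47 in MDI, -0.20, -0.29 and -0.12 in ROSI, -0.44, -0.60 and -0.53 in TBT and -0.32, -0.22 and -0.23 in BPA. They were -0.18, 0.01 and -0.02 in BP, -0.12, -0.10 and -0.06 in PP, -0.04, -0.05 and -0.06 in BBP, 0.12, -0.06 and 0.04 in DEHP and -0.04, 0.05 and 0.28 in EB. The DMSO arrays lay close together and above all arrays of the first 4 agents. Dkk3 fell by 0.58 (SE 0.0668, adjusted p = 1.83e-07) under TBT, 0.46 (SE 0.0668, adjusted p = 3.52e-06) under MDI, 0.32 (SE 0.0668, adjusted p = 0.00117) under BPA and 0.26 (SE 0.0668, adjusted p = 0.00333) under ROSI. Dkk3 is the only antagonist besides Sfrp2 called for any agent. Sfrp1 and Sfrp4, which also bind Wnt proteins, and the testis-associated Dkkl1 had ranges of group means of 0.144, 0.302 and 0.116.

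The agonists Rspo2 and Rspo3 are R-spondins, secreted proteins that bind Lgr receptors and keep Frizzled at the membrane. Rspo3 had log ratios of -0.02, 0.25 and -0.08 in DMSO, -0.51, -0.44 and -0.61 in MDI, -0.32, -0.44 and -0.36 in ROSI, -0.36, -0.40 and -0.40 in TBT and 0.47, 0.57 and 0.47 in BPA. It had -0.39, -0.10 and -0.33 in BP, -0.10, -0.12 and -0.21 in PP, 0.19, 0.18 and 0.11 in BBP, 0.07, 0.10 and 0.09 in DEHP and -0.03, 0.03 and 0.24 in EB. All 3 BPA arrays lay above all 3 DMSO arrays, whereas those of MDI, ROSI, TBT and BP lay below them. Rspo3 fell by 0.57 (SE 0.0769, adjusted p = 1.15e-06) under MDI, 0.43 (SE 0.0769, adjusted p = 0.0001) under TBT, 0.42 (SE 0.0769, adjusted p = 0.000102) under ROSI and 0.32 (SE 0.0769, adjusted p = 0.00336) under BP. It rose by 0.45 (SE 0.0769, adjusted p = 0.000104) under BPA, the only one of the 36 genes called in opposite directions by different agents against DMSO. Each of these 5 calls held without any 1 array, and with DMSO and BP as the only groups in the fit the BP value had an adjusted p of 0.0687.

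Rspo2 had log ratios of 0.17, 0.26 and 0.12 in DMSO, -0.32, -0.28 and -0.31 in MDI, 0.01, 0.05 and -0.03 in ROSI and -0.39, -0.40 and -0.42 in TBT. They were 0.03, 0.18 and -0.13 in BPA, 0.13, 0.02 and 0.07 in BBP, 0.08, 0.23 and 0.30 in DEHP, 0.06, 0.11 and 0.02 in BP, 0.29, 0.25 and 0.25 in EB and 0.16, 0.30 and 0.17 in PP. The MDI and TBT arrays stood apart below all others. Rspo2 fell by 0.59 (SE 0.0605, adjusted p = 2.95e-08) under TBT and 0.49 (SE 0.0605, adjusted p = 2.72e-07) under MDI. Under ROSI it fell by 0.18 (SE 0.0605, adjusted p = 0.0286), a call lost without DMSO replicate 1 or 2 or ROSI replicate 1 or 3 (values from -0.21 to -0.14, adjusted p up to 0.148).

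Of the 5 ligands measured, which do not include Wnt10b or Wnt6, only Wnt4 and Wnt5a were called. Wnt5a, which mostly signals without beta-catenin, fell by 0.25 (SE 0.0884, adjusted p = 0.0445) under PP. Wnt4 fell by 0.17 (SE 0.0509, adjusted p = 0.011) under ROSI, with a call lost without ROSI replicate 2 (values from -0.20 to -0.12, adjusted p up to 0.101). The Wnt5a call was lost without DMSO replicate 1 or 3 or PP replicate 2 or 3 (values from -0.32 to -0.21, adjusted p up to 0.167) and also, at an adjusted p of 0.0558, with the replicate number as a block. Wnt10a, one of the ligands known for holding back adipocyte formation, had a range of group means of 0.188 and an F test adjusted p of 0.202, and Wnt1 and Wnt8b ranged over 0.168 and 0.104.

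Both proteins that equip the ligand for release fell under MDI and ROSI. Wls, the carrier that takes Wnt proteins to the cell surface, had log ratios of 0.32, 0.44 and 0.21 in DMSO, -0.22, -0.25 and -0.36 in MDI, 0.10, 0.09 and 0.01 in ROSI, 0.06, -0.03 and 0.09 in TBT, 0.04, 0.16 and -0.01 in BP and -0.13, -0.03 and -0.08 in PP. It had 0.16, 0.20 and 0.15 in BPA, 0.34, 0.30 and 0.26 in BBP, 0.60, 0.36 and 0.45 in DEHP and 0.38, 0.33 and 0.81 in EB. The MDI arrays were the lowest, the PP group had the next lowest mean, and EB replicate 3 was the highest of all 30. Wls fell by 0.60 (SE 0.0867, adjusted p = 2.89e-06) under MDI and 0.40 (SE 0.0867, adjusted p = 0.00104) under PP, and these calls held without any 1 array. It also fell by 0.28 (SE 0.0867, adjusted p = 0.0167) under TBT, 0.26 (SE 0.0867, adjusted p = 0.0331) under BP and 0.26 (SE 0.0867, adjusted p = 0.0243) under ROSI. The call under TBT was lost without DMSO replicate 2 or TBT replicate 2 (values from -0.34 to -0.22, adjusted p up to 0.116). The call under BP was lost without DMSO replicate 1 or 2 or BP replicate 1 or 3 (from -0.31 to -0.20, adjusted p up to 0.186), and that under ROSI without DMSO replicate 1 or 2 or ROSI replicate 3 (from -0.31 to -0.20, adjusted p up to 0.14). Porcn, the enzyme that attaches a fatty acid to Wnt proteins, fell by 0.35 (SE 0.0542, adjusted p = 7.97e-06) under MDI, 0.25 (SE 0.0542, adjusted p = 0.000708) under ROSI and 0.18 (SE 0.0542, adjusted p = 0.0153) under BP, the last lost without BP replicate 1 or 2 (from -0.21 to -0.17, adjusted p up to 0.0552).

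**Figure D3:**
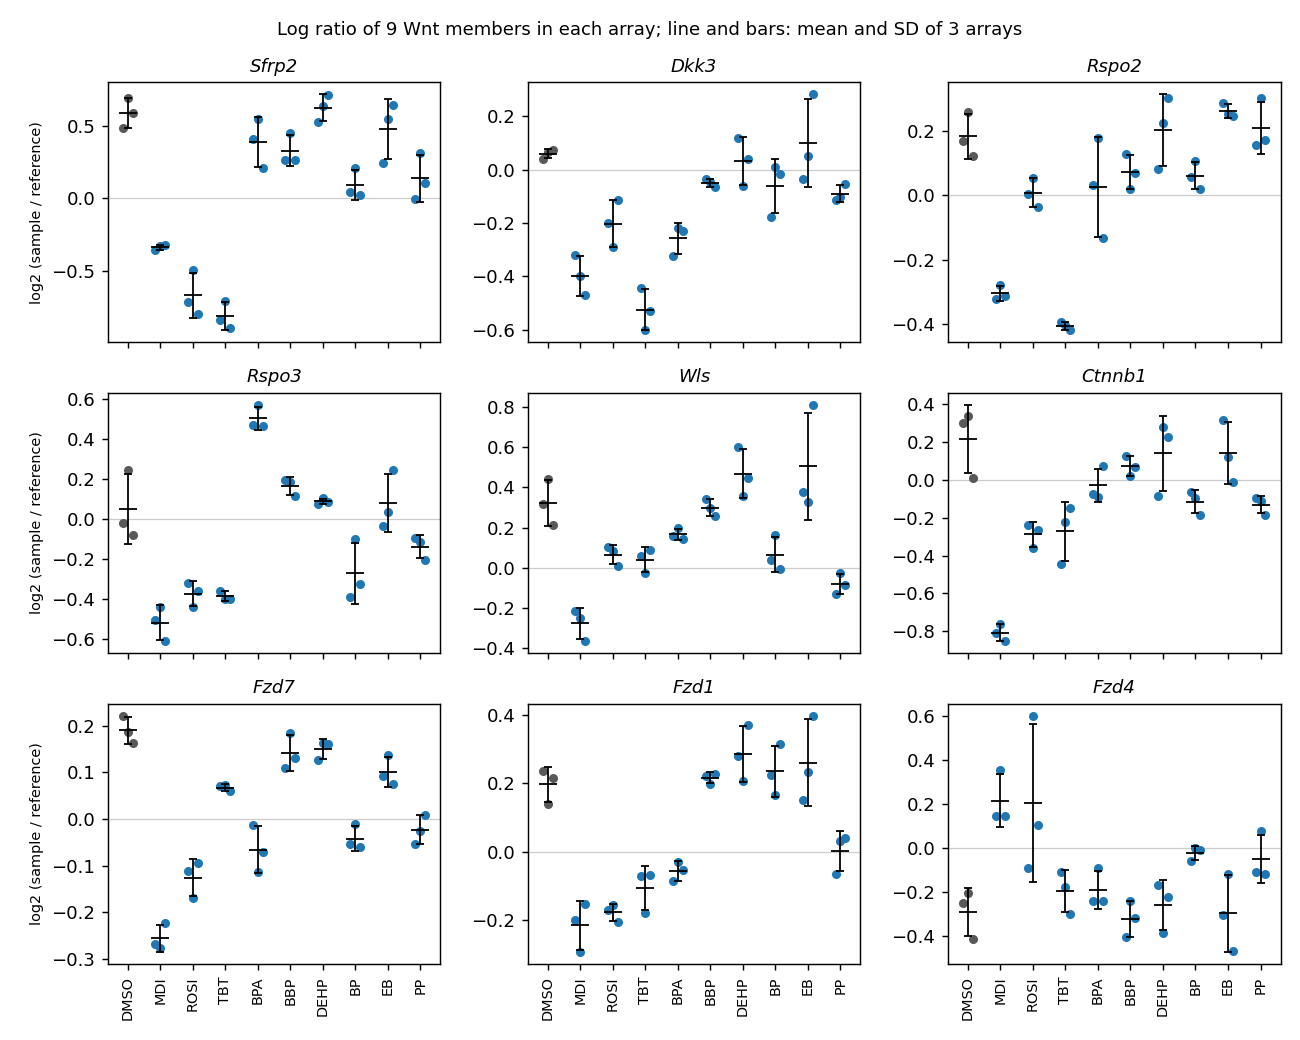
Log2 ratio of sample over reference of 9 Wnt genes in each of the 30 arrays (points, DMSO in grey), with the mean and SD of 3 arrays as a bar and whiskers, and a separate vertical scale for each gene. MDI, ROSI and TBT lie below DMSO for Sfrp2, Dkk3, Rspo2, Rspo3, Wls, Ctnnb1, Fzd7 and Fzd1, BPA lies above DMSO for Rspo3, and MDI lies above DMSO for Fzd4.

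Of the 11 receptors, Fzd7 was called lower under 6 agents and Fzd1 and Ror2 under 5. Fzd7, a Frizzled able to carry the beta-catenin signal, had log ratios of 0.22, 0.19 and 0.16 in DMSO, -0.27, -0.28 and -0.22 in MDI, -0.11, -0.17 and -0.09 in ROSI and 0.07, 0.07 and 0.06 in TBT. The replicates were tight, and the order DMSO, TBT, ROSI and MDI held with no overlap. Fzd7 fell by 0.45 (SE 0.0335, adjusted p = 3.67e-11) under MDI, 0.32 (SE 0.0335, adjusted p = 3.34e-08) under ROSI and 0.12 (SE 0.0335, adjusted p = 0.00735) under TBT, and by 0.26 under BPA, 0.23 under BP and 0.21 under PP, 6 calls that all held without any 1 array. With DMSO and TBT as the only groups in the fit, the TBT value had an adjusted p of 0.0922. Of its probes, 1 fell by 0.22 under TBT and the other by 0.03, the latter not called. Fzd1 had log ratios of 0.24, 0.14 and 0.22 in DMSO, -0.20, -0.29 and -0.15 in MDI, -0.17, -0.16 and -0.20 in ROSI, -0.07, -0.18 and -0.07 in TBT and -0.09, -0.03 and -0.05 in BPA. It fell by 0.41 (SE 0.0555, adjusted p = 9.91e-07) under MDI, 0.37 (SE 0.0555, adjusted p = 6.37e-06) under ROSI, 0.30 (SE 0.0555, adjusted p = 0.00014) under TBT and 0.25 (SE 0.0555, adjusted p = 0.00167) under BPA, with no overlap with DMSO. Its fall of 0.19 (SE 0.0555, adjusted p = 0.0126) under PP was lost without DMSO replicate 1 or PP replicate 1 (from -0.22 to -0.16, adjusted p up to 0.0805). Under BP, which lowered Fzd7, Fzd1 gave 0.04 and was not called.

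The start windows of these receptors are shown with the Tcf/Lef core letters in capitals. Both genes fell under MDI, ROSI and TBT, and both windows have a match. RefSeq gives Fzd7 on the plus strand at chr1:59481897-59482196 and Fzd1 on the minus strand at chr5:4758167-4758466 of GRCm38.p6. The match in Fzd7 begins 129 bases before the start and reads on the opposite strand, and those in Fzd1 begin 242 and 37 bases before it, the first of them on the opposite strand.
Fzd7 promoter: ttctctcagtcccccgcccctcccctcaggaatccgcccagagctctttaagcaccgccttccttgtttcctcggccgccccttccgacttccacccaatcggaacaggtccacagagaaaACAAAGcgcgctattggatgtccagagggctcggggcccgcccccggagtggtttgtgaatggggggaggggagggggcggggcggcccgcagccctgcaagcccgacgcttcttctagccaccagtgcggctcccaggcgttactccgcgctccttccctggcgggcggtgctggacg
Fzd1 promoter: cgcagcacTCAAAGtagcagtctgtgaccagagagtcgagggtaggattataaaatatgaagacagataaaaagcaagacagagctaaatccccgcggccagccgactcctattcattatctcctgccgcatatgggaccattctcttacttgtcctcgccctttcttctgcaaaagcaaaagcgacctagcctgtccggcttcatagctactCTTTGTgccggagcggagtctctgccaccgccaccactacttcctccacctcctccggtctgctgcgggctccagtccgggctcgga
Windows were found for 20 of the 36 genes, 25 windows in all, and 8 of the 25 (32.0%) held a match, close to the 31.2% of all windows. A match is only a run of letters and was not tested for binding.

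Other receptors moved upward. Fzd4, the receptor that also answers to norrin, had log ratios of -0.25, -0.21 and -0.41 in DMSO, 0.15, 0.36 and 0.15 in MDI, -0.09, 0.60 and 0.10 in ROSI and -0.11, -0.18 and -0.30 in TBT. It had -0.24, -0.09 and -0.24 in BPA, -0.41, -0.24 and -0.32 in BBP, -0.17, -0.39 and -0.22 in DEHP, -0.06, 0.00 and -0.01 in BP, -0.30, -0.12 and -0.47 in EB and -0.11, 0.08 and -0.12 in PP. The ROSI arrays were spread over a wide range, with replicate 2 far above the others. Fzd4 rose by 0.51 (SE 0.118, adjusted p = 0.00105) under MDI and by 0.49 (SE 0.118, adjusted p = 0.00173) under ROSI. Without ROSI replicate 2 the change under ROSI was 0.30, still called, and with DMSO and ROSI as the only groups in the fit its adjusted p was 0.0545.

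Fzd3, a Frizzled of planar polarity, was called under MDI and no other agent, but the replicates were noisy. Its log ratios were 0.19, 0.24 and 0.05 in DMSO, 0.78, 0.62 and 0.97 in MDI, 0.68, 0.17 and 0.69 in ROSI, 0.48, -0.09 and -0.12 in TBT and 1.02, -0.10 and 0.98 in BBP. They were 0.19, -0.22 and -0.02 in BPA, -0.07, 0.01 and 0.67 in DEHP, 0.16, 0.48 and 0.35 in BP, 0.13, 0.09 and 0.05 in EB and 0.25, 0.77 and 0.11 in PP. BBP replicate 2 lay far below the other BBP arrays. The rise under MDI was 0.63 (SE 0.239, adjusted p = 0.0406), its F test adjusted p was 0.0825, and the call was lost without any 1 of the DMSO arrays or MDI replicate 1 or 3 (from 0.54 to 0.71, adjusted p up to 0.141). It was lost too with robust eBayes (adjusted p = 0.0541) and after quantile normalization, where the rise was 0.26 (adjusted p = 0.528).

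Ror2, a receptor kinase for Wnt5a, fell under 5 agents, by 0.44 (SE 0.058, adjusted p = 2.36e-06) under PP, 0.37 (SE 0.058, adjusted p = 2.86e-05) under BP, 0.28 under MDI, 0.27 under BPA and 0.23 under ROSI, and each call held without any 1 array. Its lowest group means were those of PP and BP, whereas that of Fzd7 was in MDI. Fzd2 fell by 0.44 under MDI and Fzd8 by 0.28. Fzd2 also fell by 0.34 under BPA and 0.31 under PP. The BPA call was lost without DMSO replicate 1 or 3 or BPA replicate 1 or 2 (from -0.39 to -0.31, adjusted p up to 0.103), and the PP call without any 1 of the 6 arrays (from -0.35 to -0.27, adjusted p up to 0.149). Of the Fzd2 probes, 1 fell by 0.55 under MDI and the other by 0.32, the latter not called. Under ROSI, where the gene was not called, the first probe fell by 0.39 and was called, and the other gave -0.04. The co-receptor Lrp6 rose by 0.34 (SE 0.0881, adjusted p = 0.00677) under BPA and was called for no other agent, and of its probes 1 rose by 0.55 while the other gave 0.13 and was not called. Its partner Lrp5 fell by 0.23 (SE 0.0836, adjusted p = 0.0417) under ROSI, a call lost without any 1 DMSO array or ROSI replicate 1 or 3 (from -0.26 to -0.18, adjusted p up to 0.176).

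In the cytoplasm the largest change was that of Ctnnb1, which encodes beta-catenin, the protein that carries the signal to the nucleus and also links cadherins at cell contacts. Its log ratios were 0.30, 0.34 and 0.01 in DMSO, -0.81, -0.76 and -0.85 in MDI, -0.24, -0.36 and -0.27 in ROSI, -0.45, -0.22 and -0.15 in TBT, -0.06, -0.10 and -0.18 in BP and -0.10, -0.11 and -0.18 in PP. They were -0.07, -0.09 and 0.07 in BPA, 0.13, 0.02 and 0.07 in BBP, -0.09, 0.28 and 0.23 in DEHP and 0.32, 0.12 and -0.01 in EB. The MDI arrays lay below every other array, and DMSO replicate 3 lay below the other DMSO arrays. Ctnnb1 fell by 1.02 (SE 0.0938, adjusted p = 1.42e-09) under MDI, or 2.03-fold, by 0.51 (SE 0.0938, adjusted p = 0.000125) under ROSI and by 0.49 (SE 0.0938, adjusted p = 0.000257) under TBT. It fell by 0.35 (SE 0.0938, adjusted p = 0.00815) under PP, lost without DMSO replicate 2 (from -0.45 to -0.29, adjusted p up to 0.0642), and by 0.33 (SE 0.0938, adjusted p = 0.0116) under BP, lost without DMSO replicate 1 or 2 or BP replicate 3 (from -0.43 to -0.27, adjusted p up to 0.084). These are transcript values and hold no information on the stability of the protein.

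Of the destruction complex only the scaffold Axin1 was called. It fell by 0.32 (SE 0.0712, adjusted p = 0.000735) under MDI. It fell also by 0.22 under ROSI, lost without DMSO replicate 3 or ROSI replicate 1 (from -0.24 to -0.19, adjusted p up to 0.0819), and by 0.20 under PP. That PP call was lost without any 1 DMSO array or PP replicate 2 or 3 (from -0.24 to -0.16, adjusted p up to 0.182) and, at an adjusted p of 0.055, with the replicate number as a block. Apc, the scaffold lost in colon cancer, had the smallest range of group means of the 36 genes, 0.0787. Gsk3b, the kinase of the complex, was not called, and its 3 probes disagreed under MDI, at 0.19, -0.06 and -0.25, the first and last called. The first of them was also called higher under ROSI, TBT, BPA and BP, by 0.22 to 0.26.

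Dvl proteins relay the signal from Frizzled. Dvl2 fell by 0.34 (SE 0.0507, adjusted p = 5.34e-06) under MDI and 0.19 (SE 0.0507, adjusted p = 0.00553) under ROSI, but its probes went opposite ways under MDI, at 0.15 and -0.82, so that its direction is uncertain. Under ROSI they gave 0.11 and -0.48, and after quantile normalization the gene's value there was -0.29. The second probe was also called lower under TBT, BPA, BP and PP, by 0.21 to 0.26. The first gave 0.11 to 0.15 there and was not called, and neither was the gene. Dvl3 fell by 0.48 (SE 0.149, adjusted p = 0.0447) under BBP and 0.45 (SE 0.149, adjusted p = 0.0237) under ROSI. The BBP call was lost without any 1 of the 6 arrays (from -0.52 to -0.39, adjusted p up to 0.18), and the ROSI call without DMSO replicate 1 or ROSI replicate 1 or 2 (from -0.50 to -0.36, adjusted p up to 0.117). Under PP Dvl3 gave -0.40 with an adjusted p of 0.0599, and 0.0344 with the replicate number as a block. Dvl3 had its highest group mean in DMSO.

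Of the nuclear proteins, Tcf7l1, known mostly as a repressor of Wnt targets, and Lef1, known mostly as an activator, were called in opposite directions. Tcf7l1 fell by 0.44 (SE 0.057, adjusted p = 8.67e-07) under ROSI and 0.21 (SE 0.057, adjusted p = 0.00637) under TBT. It also fell by 0.17 under MDI, 0.19 under BBP and 0.17 under BP. Without 1 array the MDI call was lost for DMSO replicate 2 and MDI replicates 2 and 3 (from -0.17 to -0.16, adjusted p up to 0.0601), the BBP call for every array but BBP replicate 1 (from -0.22 to -0.17, adjusted p up to 0.15), and the BP call for every array but BP replicate 1 (from -0.22 to -0.13, adjusted p up to 0.168). Lef1 rose by 0.24 (SE 0.0441, adjusted p = 9.73e-05) under MDI and 0.19 (SE 0.0441, adjusted p = 0.00244) under BPA, and both of its probes rose under MDI, by 0.18 and 0.30, but 1 under BPA, by 0.31, where the other gave 0.08 and was not called. Its rise of 0.13 under PP was lost without DMSO replicate 1 or 2 or PP replicate 1 or 3 (from 0.09 to 0.16, adjusted p up to 0.211). Tcf7l2, the family member best known in adipose tissue, was called for no agent, although 1 of its 3 probes fell by 0.21 under MDI.

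The Tcf7l1 window is shown as that of a Tcf/Lef gene that fell under MDI, ROSI and TBT and has a match of the Tcf/Lef core. RefSeq gives it on the minus strand of GRCm38.p6 at chr6:72788996-72789295, and the match, in capitals, begins 28 bases before the start.
Tcf7l1 promoter: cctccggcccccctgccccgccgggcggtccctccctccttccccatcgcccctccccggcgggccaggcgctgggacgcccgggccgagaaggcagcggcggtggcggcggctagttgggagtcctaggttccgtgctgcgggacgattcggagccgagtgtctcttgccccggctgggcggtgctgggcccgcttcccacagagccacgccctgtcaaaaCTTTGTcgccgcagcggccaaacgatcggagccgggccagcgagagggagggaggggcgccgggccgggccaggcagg
Of the 9 genes lower under all 3 agents, 6 had a window, and 3 of their 7 windows (42.9%) held a match, those of Fzd1, Fzd7 and Tcf7l1. Of all windows 31.2% held a match, and 7 windows are too few to read a difference. The windows of Sfrp2, Ctnnb1 and Wls held none, and those of Ctnnb1 and Wls are not shown.

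MDI, ROSI and TBT were also set against each other. Under ROSI 6 Wnt genes were higher than under MDI (9.47% of all entries) and 3 lower (10.8%). Ctnnb1 was higher by 0.52 (SE 0.0938, adjusted p = 0.000161), Wls by 0.34 (SE 0.0867, adjusted p = 0.00483), Rspo2 by 0.31 (SE 0.0605, adjusted p = 0.000357) and Fzd7 by 0.13 (SE 0.0335, adjusted p = 0.00568). Tcf7l1 was lower by 0.27 (SE 0.057, adjusted p = 0.000851), and these 5 calls held without any 1 array, while Fzd7 gave 0.07 with an adjusted p of 0.342 after quantile normalization, and its probes, at 0.12 and 0.14, were not called singly. With quantile normalization, or with MDI and ROSI as the only groups in the fit, 5 genes were called in all. Dkk3 and Dvl2 were higher by 0.20 and 0.15, and Sfrp2 and Lef1 lower by 0.33 and 0.15. Each of these 4 calls was lost without some array. Dkk3 lost it without MDI replicate 2 or 3 or ROSI replicate 1 or 3 (from 0.15 to 0.24, adjusted p up to 0.177), and Sfrp2 without the same 4 arrays (from -0.42 to -0.27, adjusted p up to 0.11). Dvl2 lost it without any MDI array or ROSI replicate 2 or 3 (from 0.13 to 0.18, adjusted p up to 0.132), and Lef1 without MDI replicate 3 or ROSI replicate 1 (from -0.17 to -0.12, adjusted p up to 0.0913).

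Under TBT 8 Wnt genes were higher than under MDI (12.5% of all entries) and 4 lower (15.7%). Ctnnb1 was higher by 0.54 (SE 0.0938, adjusted p = 7.4e-05), Fzd7 by 0.32 (SE 0.0335, adjusted p = 3.57e-08), Wls by 0.32 (SE 0.0867, adjusted p = 0.00671), Dvl2 by 0.28 (SE 0.0507, adjusted p = 0.000122) and Porcn by 0.25 (SE 0.0542, adjusted p = 0.000915). Sfrp2 was lower by 0.48 (SE 0.102, adjusted p = 0.000755) and Lef1 by 0.18 (SE 0.0441, adjusted p = 0.00269). The Dvl2 call rests on 1 probe at 0.60, with the other at -0.04 and not called, and of the Lef1 probes 1 fell by 0.26 and the other gave -0.10, not called. Sfrp2 was thus lowest under TBT and ROSI, and Ctnnb1 lowest under MDI. With quantile normalization the difference in Sfrp2 from MDI was -0.94 for TBT and -0.70 for ROSI, against -0.48 and -0.33 above. Axin1, Ror2 and Wnt4 were higher by 0.20, 0.18 and 0.14, and Fzd3 and Fzd4 lower by 0.70 and 0.41, calls that each were lost without some array. After quantile normalization Fzd3 gave -0.35 (adjusted p = 0.412). For Axin1 and Fzd3 those were MDI replicates 1 and 3 and TBT replicates 2 and 3 (from 0.16 to 0.28, adjusted p up to 0.17 and from -0.89 to -0.59, adjusted p up to 0.121). For Ror2 they were MDI replicates 2 and 3 and TBT replicates 1 and 3 (from 0.16 to 0.21, adjusted p up to 0.0819), for Wnt4 MDI replicates 2 and 3 and TBT replicates 2 and 3 (from 0.11 to 0.18, adjusted p up to 0.16), and for Fzd4 MDI replicate 2 and TBT replicate 3 (from -0.45 to -0.34, adjusted p up to 0.0589).

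Between TBT and ROSI, whose doses are not given in the labels, 4 Wnt genes were higher under TBT (7.31% of all entries) and 3 lower (10.4%). Fzd7 was higher by 0.19 (SE 0.0335, adjusted p = 0.000156) and Wnt4 by 0.23 (SE 0.0509, adjusted p = 0.00207), while Rspo2 was lower by 0.41 (SE 0.0605, adjusted p = 1.66e-05) and Dkk3 by 0.32 (SE 0.0668, adjusted p = 0.00101). These 4 calls held without any 1 array. The Fzd7 call rests on 1 probe, at 0.34, with the other at 0.05 and not called, and Dkk3 gave -0.49 after quantile normalization. Lrp5 and Tcf7l1 were higher by 0.30 and 0.23, and Fzd4 lower by 0.40. The call of Lrp5 was lost without ROSI replicate 1 or TBT replicate 2 (from 0.25 to 0.35, adjusted p up to 0.0736), and that of Tcf7l1 without ROSI replicate 1 (from 0.17 to 0.26, adjusted p up to 0.0549). That of Fzd4 was lost without ROSI replicate 2 or TBT replicate 3 (from -0.55 to -0.20, adjusted p up to 0.2).

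DEHP and BBP are both phthalate esters, and their doses are not given in the labels. Ror2 was the 1 Wnt gene higher under DEHP than under BBP (0.915% of all entries), by 0.22 (SE 0.058, adjusted p = 0.0232), and 0 were lower (4.77%). Over all entries the share of higher calls was 16.1%, and 29.8% after quantile normalization. The Ror2 call was lost without DEHP replicate 1 or 3 or BBP replicate 2 or 3 (from 0.19 to 0.25, adjusted p up to 0.109). Sfrp2 differed by 0.30 (95% interval 0.09 to 0.51) and was not called. The intervals are not adjusted for the number of entries, whereas the calls are. They were -0.12 to 0.26 for Ctnnb1 and -0.06 to 0.08 for Fzd7, so that differences of those sizes are not excluded here.

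DEHP and EB called 0 of the 36 genes against DMSO in limma's test, with an unadjusted p under 0.05 for 4 and 7 of them. The share of all entries under that unadjusted limit was not computed, so these counts are not read as an effect. The 95% intervals for Sfrp2 were -0.17 to 0.25 under DEHP and -0.32 to 0.10 under EB. The fall under BP was 0.50, itself an estimate with an error, and neither DEHP nor EB was tested against BP. For Ctnnb1 the intervals were -0.27 to 0.12 and -0.27 to 0.12. The smallest adjusted p was that of Tcf7l1 under EB, -0.24 with an adjusted p of 0.0529, followed by Dvl3 at -0.58 with 0.0674. In order of replicate, the Dvl3 log ratios under EB were 0.09, 0.01 and -0.79, the last far below the others. Without EB replicate 1 or EB replicate 2 there were 2 calls under EB.

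For other agents too the number of calls rested on single arrays. Under BP 5 genes were called without DMSO replicate 1, DMSO replicate 2 or BP replicate 3. Under PP 5 were called without DMSO replicate 1 and 6 without DMSO replicate 2 or PP replicate 3. Under BBP 0 were called without any 1 DMSO array or BBP replicate 3. The authors' deposited tables call 24 of the 46 Wnt probes under MDI, where they call 38.5% of all probes, 20 under ROSI, beside 30.3%, and 11 under TBT, beside 25%.

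Beyond these genes, 55 of 70 other listed Wnt pathway genes (coreceptors, kinases, inhibitors and transcription cofactors) were measured, and their calls were split between higher and lower. MDI raised 11 and lowered 16, ROSI 9 and 12, TBT 8 and 12, BPA 6 and 8, PP 6 and 7, BP 4 and 9, EB 2 and 2, BBP 1 and 1, and DEHP 0 and 0. For agents other than MDI, ROSI and TBT, the shares of all entries are those given above. As shares of the 55, the higher calls were 20% under MDI, 16.4% under ROSI and 14.5% under TBT, where 20.1%, 16.5% and 14.1% of all entries were higher. The lower calls were 29.1%, 21.8% and 21.8%, beside 18.3%, 14.3% and 10.6% of all entries. Their median change was -0.02 under MDI and -0.03 under ROSI and TBT. Tspan12, a tetraspanin that aids norrin signalling through Fzd4, rose by 2.85 (SE 0.107, adjusted p = 3.73e-17) under MDI, 2.53 (SE 0.107, adjusted p = 7.74e-16) under ROSI and 1.59 (SE 0.107, adjusted p = 1.39e-11) under TBT, and also under BPA, BBP, BP and PP by 1.06 to 1.60. Under EB it rose by 0.49 (SE 0.107, adjusted p = 0.0336), a call lost without DMSO replicate 1 or 2 or EB replicate 3 (from 0.37 to 0.59, adjusted p up to 0.155). With quantile normalization the rise of Tspan12 was 1.66 under MDI, 0.97 under TBT, 0.41 under BPA, 0.42 under BBP, 0.99 under BP and 0.65 under PP, and under EB it was 0.20 and not called (adjusted p = 0.592).

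Inhibitors and helpers inside the cell went different ways. Nkd2 and Dact3, which bind Dvl and are known as inhibitors, fell by 0.67 (SE 0.0427, adjusted p = 1.34e-12) and 0.96 (SE 0.0603, adjusted p = 1.13e-12) under MDI. Nkd2 fell by 0.49 under TBT and 0.19 under ROSI, and Dact3 by 0.59 under ROSI and 0.18 under TBT. That last call was lost without DMSO replicate 1 or 3 or TBT replicate 1 or 2 (from -0.20 to -0.16, adjusted p up to 0.102), and the value was -0.34 after quantile normalization. Frat1 and Frat2, which bind Gsk3 and are known as activators, rose by 0.59 (SE 0.0604, adjusted p = 9.61e-09) and 0.47 (SE 0.0396, adjusted p = 3.48e-10) under MDI and by 0.57 and 0.49 under ROSI. Csnk1a1, the kinase that primes beta-catenin for destruction, rose by 0.43 (SE 0.0468, adjusted p = 3.02e-08) under MDI, 0.29 under ROSI, 0.24 under TBT and 0.31 under BPA.

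Of 30 listed target genes of the pathway 23 were measured. More of them were called lower than higher under MDI, ROSI, TBT, PP, BP, BPA and BBP. MDI lowered 13 and raised 4, ROSI 10 and 2, TBT 11 and 0, PP 9 and 1, BP 7 and 2, BPA 5 and 0, BBP 4 and 0, EB 1 and 0, and DEHP 0 and 0. The EB call was Ccnd1, at -0.24. It was lost without any 1 DMSO array or EB replicate 3 (from -0.29 to -0.17, adjusted p up to 0.211). The lower calls were 56.5% of the 23 under MDI, 43.5% under ROSI and 47.8% under TBT, beside 18.3%, 14.3% and 10.6% of all entries. The higher calls were 17.4%, 8.7% and 0%, beside 20.1%, 16.5% and 14.1%. Of all entries, 8.24% were lower under PP, 8.73% under BP, 6.97% under BPA, 2.35% under BBP and 0.25% under EB. The shares called higher there were 12%, 12.9%, 12.3%, 6.9% and 0.432%. The median change of the 23 targets was -0.20 under MDI, -0.17 under ROSI and -0.13 under TBT. Many of these genes answer to other pathways and to cell growth as well. Ccnd1, a cyclin of the cell cycle, fell by 1.42 (SE 0.0555, adjusted p = 8.8e-17) under MDI, 1.02 (SE 0.0555, adjusted p = 1.08e-13) under ROSI and 1.02 (SE 0.0555, adjusted p = 2.71e-13) under TBT. Ccnd1 also fell by 0.66 under BPA, 0.49 under PP, 0.39 under BP and 0.34 under BBP. After quantile normalization its falls under BP and BBP were 0.58 and 0.53. The matricellular gene Ccn4 fell by 1.24 under MDI, 1.15 under PP, 0.89 under BPA, 0.80 under TBT, 0.68 under ROSI and 0.58 under BP. Its relative Ccn5 fell by 1.61 under MDI, 1.11 under BPA, 0.90 under PP, 0.69 under ROSI, 0.57 under BP and 0.56 under TBT. Of the transcription regulators, Sox9 fell by 0.73 under MDI, 0.66 under TBT, 0.48 under ROSI, 0.37 under BP and 0.25 under PP. Id2 fell by 1.58 under MDI, 0.67 under BP, 0.64 under ROSI and 0.60 under BBP. These calls held without any 1 array. Fosl1, a subunit of the AP-1 factor, rose by 1.18 (SE 0.0684, adjusted p = 2.46e-13) under MDI, and by 0.67 after quantile normalization. It also rose by 0.22 (SE 0.0684, adjusted p = 0.0172) under ROSI, a call lost without DMSO replicate 2 or ROSI replicate 2 (from 0.14 to 0.29, adjusted p up to 0.16), after quantile normalization (adjusted p = 0.0983), with array weights (adjusted p = 0.0532) and with only DMSO and ROSI in the fit (adjusted p = 0.0709).

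**Figure D4:**
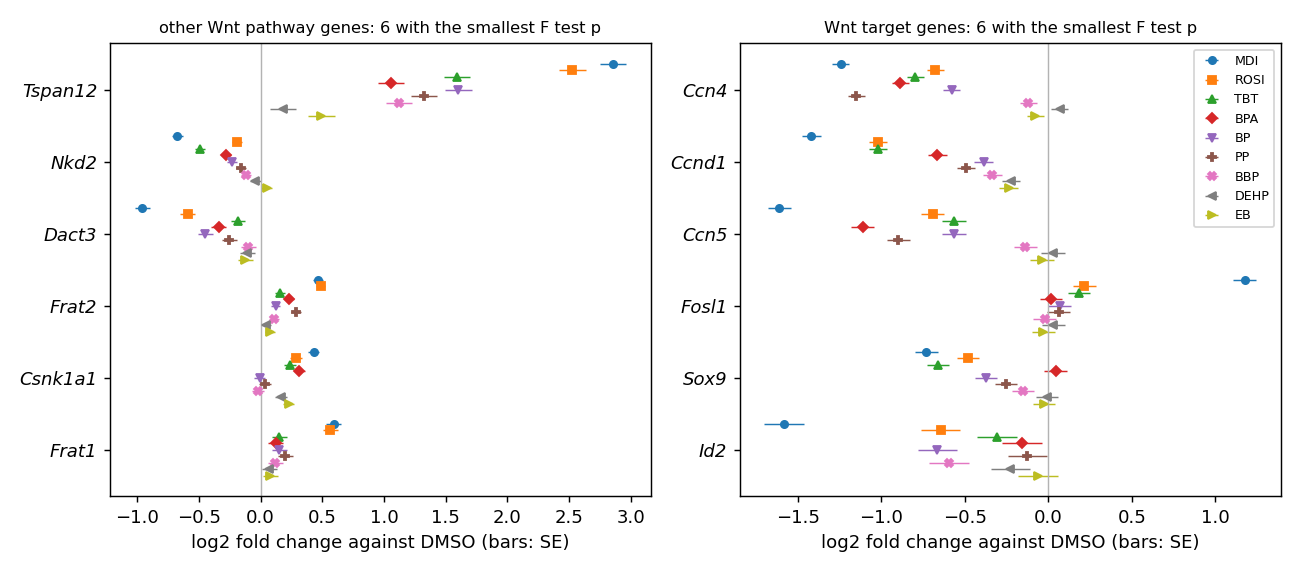
Log2 fold change against DMSO (horizontal axis, bars are the SE) of the 6 genes with the smallest F test p among other Wnt pathway genes (left) and among Wnt target genes (right), with 1 symbol per agent. Tspan12 lies to the right for all agents and furthest under MDI and ROSI, Ccn4, Ccn5 and Ccnd1 lie to the left under MDI, ROSI, TBT, BPA, BP and PP, and Fosl1 lies far to the right under MDI.

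For reference, Adipoq was higher than in DMSO by 4.23 (SE 0.0976, adjusted p = 5.48e-21) under MDI, 3.55 (SE 0.0976, adjusted p = 2.38e-19) under ROSI and 2.21 (SE 0.0976, adjusted p = 5.25e-15) under TBT, and Fabp4 by 4.58, 4.58 and 3.40. Pparg was higher by 2.54, 1.15 and 0.98. With quantile normalization the values were 2.54, 2.27 and 0.95 for Adipoq and 1.46, 0.61 and 0.37 for Pparg. Dlk1, the marker of preadipocytes, was lower by 0.47 under MDI, 1.05 under ROSI and 0.97 under TBT. The fall in Dlk1 was larger under ROSI and TBT than under MDI, as that in Sfrp2 was, whereas Ctnnb1 and Wls fell most under MDI. Whether the differences between agents in Sfrp2 go with those in Dlk1 was not tested.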

How the data were processed

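Expression was measured in 30 samples of 3T3-L1 cells (10 groups of 3) on 2-colour Agilent arrays, each sample in Cy3 against a common Cy5 reference per the labels. The submitters' processing notes name limma without a version. Background correction and normalization by the authors are not given in the sources used here. The authors deposited log ratios of reference over sample. Their base is not stated. Per the submitters' processing notes, which name limma, the values were processed to log ratios before deposit, and were read here as log2 by assumption. The group differences, with the sign turned, equal the authors' deposited fold changes to within 5e-08. That match shows the sign, but it would hold for any base and so cannot decide the base. The authors' tables of fold changes also hold adjusted p-values made by the authors. The authors' table of DEHP against DMSO was left out, since it writes its numbers with decimal commas.

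The sign was turned so that a positive value means more RNA in the sample. Of 23460 probes, 26 control probes were left out, and probes were averaged per gene through the platform's annotation, which gave 14763 named genes and 4468 unnamed probes (19231 entries). With limma 3.58.1 (R 4.3.3), a model with 1 mean per group was fitted over the 30 arrays, with eBayes and Benjamini-Hochberg adjustment over all entries, two-sided, in 13 comparisons and an F test. A call is an adjusted p under 0.05. The fit was tested on simulated data. Members called against DMSO with an absolute log2 fold change of at least 0.5 are given array by array, together with Fzd7 and Fzd1, chosen after their values were seen. From the other pathway and target lists the 6 genes with the smallest F test p are named, and Pparg, Adipoq, Fabp4 and Dlk1 serve as reference. The members and lists were chosen with earlier results of these data known.

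Samples with the same replicate number deviated together in 1 comparison: for PP and DMSO the correlations of their deviations from the group means were 0.127, 0.207 and 0.166. In every other comparison at least 1 correlation was under 0.1. Alternatives were centring, quantile normalization, robust eBayes, array weights, the replicate block, a fit of the compared groups, each probe on its own, a fold limit of 0.5 and leaving out each array. Promoters are RefSeq windows of GRCm38.p6, matched by symbol. Figures were drawn with matplotlib 3.10.9 in Python 3.11.15.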

Additional observations from a re-analysis of the deposited data

How the results depend on the processing

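Of the 101 calls of Wnt genes over the 13 comparisons, 0 changed direction under the alternatives that average a gene's probes. Of the 22 calls on genes with several probes, 7 had every probe called in the same direction, and in the 4 of Dvl2 a probe had the opposite sign, 1 of them called (0.15 under MDI). Centring each array on its median and array weights kept all 101, robust eBayes and the replicate block 99 each, quantile normalization 89 and a fit of only the compared groups 85. Leaving out 1 array at a time kept 485 of 606. The cause of the lost calls was not tested. The fit of only the compared groups and the leaving out of 1 array also used fewer arrays.

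A fold limit of 0.5 left 6 calls under MDI, 2 under ROSI, 3 under TBT, 1 for ROSI against MDI, 2 for TBT against MDI, and 0 under BPA, BBP, BP and PP, for TBT against ROSI and for DEHP against BBP. Quantile normalization and the fit of only the compared groups each gave 5 calls for ROSI against MDI, against 9, and 1 under BBP, against 2. Robust eBayes also gave 1 under BBP. Array weights gave 1 call under DEHP, against 0, and 2 for DEHP against BBP, against 1. The replicate block gave 1 call under EB, against 0, and 2 for DEHP against BBP. For PP, where the numbers paired the samples, the block gave 9 calls against 10, and it ended those of Axin1 and Wnt5a and added Dvl3 (-0.40, adjusted p = 0.0344). Without 1 array the calls numbered 0 to 1 under BBP, 5 to 7 under BP, 5 to 8 under PP, 0 to 2 under EB and 0 to 1 for DEHP against BBP. The F test called 17 to 18 without 1 replicate number in all groups and 20 to 23 under its other alternatives, against 21. Outside the members, Tspan12 in ROSI against MDI turned from -0.33 to 0.0854 (adjusted p = 0.749) with quantile normalization, and the cause was not tested.

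The number of arrays limits the precision, and signal over background is unknown.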
